A study of Mus musculus with 30 samples.

Results

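The genes for the protamines (Prm1, Prm2 and Prm3) and the transition proteins (Tnp1 and Tnp2) were followed in sperm of 30 mice: 5 of 34337 annotated genes, chosen by name. Their CpGs were those from 5 kb before to 5 kb after each gene body on GRCm38, with both strands of a CpG summed and 5 or more reads in a mouse. Of 2333297 such CpGs read in at least 1 mouse of the series, 177 lay in these windows. Of these, 155 could be tested, of 1264996 tested in all, and 72 were read in every mouse. The assay was RRBS (reduced representation bisulfite sequencing), in which bisulfite-converted reads come mostly from CpG-rich stretches of the genome, on sperm from the cauda epididymis of male C57BL/6J mice. Cadmium mice (n = 15) had cadmium chloride in their reverse-osmosis drinking water, to 0.9 ppm of cadmium, at an average dose of 0.68 mg cadmium per kg of body weight. Vehicle mice (n = 15) drank the same water without cadmium. Both groups entered the study at 7 weeks of age, lived singly on the same low-fat diet and were sampled after 9 weeks of treatment. The question posed in the study's title is whether chronic cadmium changes sperm methylation.

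In mammalian spermatids histones are removed from the DNA, transition proteins take their place, and protamines then replace these and pack the sperm nucleus. Protamine 1 and protamine 2 are small arginine-rich proteins that bind DNA, and protamine 2 is made as a precursor that is cut to its mature form. The genes are transcribed in round spermatids, their mRNAs are stored and translated later, and mature sperm transcribe next to nothing. In the mouse Prm1, Prm2, Prm3 and Tnp2 lie side by side on chromosome 16, next to Socs1, a suppressor of cytokine signalling, and Tnp1 lies on chromosome 1, apart from the others.

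All 5 genes lie on the minus strand. Tnp1 is at chr1:73015074-73015899, with the long noncoding RNA gene 1700027A15Rik 137 bp before its start, and the other bodies are chr16:10787935-10788655 (Tnp2), chr16:10790508-10790914 (Prm3), chr16:10791377-10792105 (Prm2) and chr16:10796332-10796823 (Prm1). The 250 bases before the start of Tnp1, Tnp2 and Prm1 are shown because the genes differ in the CpGs they hold there. RRBS commonly cuts DNA at CCGG, and the sources used here do not name the enzyme. They are RefSeq sequence on GRCm38.p6, written 5′ to 3′ on the gene's strand, with the CpGs that lie wholly within them in capitals.
Tnp1, chr1:73015900-73016149: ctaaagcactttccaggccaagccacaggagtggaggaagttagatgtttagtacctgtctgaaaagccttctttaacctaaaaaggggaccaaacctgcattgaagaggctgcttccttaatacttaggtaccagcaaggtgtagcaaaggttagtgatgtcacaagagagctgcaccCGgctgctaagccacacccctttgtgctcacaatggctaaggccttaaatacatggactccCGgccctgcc
Tnp2, chr16:10788656-10788905: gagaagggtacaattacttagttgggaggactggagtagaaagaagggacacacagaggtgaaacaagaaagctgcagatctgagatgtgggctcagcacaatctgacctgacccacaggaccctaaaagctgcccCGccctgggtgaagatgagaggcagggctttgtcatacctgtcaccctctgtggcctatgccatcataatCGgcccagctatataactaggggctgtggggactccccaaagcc
Prm1, chr16:10796824-10797073: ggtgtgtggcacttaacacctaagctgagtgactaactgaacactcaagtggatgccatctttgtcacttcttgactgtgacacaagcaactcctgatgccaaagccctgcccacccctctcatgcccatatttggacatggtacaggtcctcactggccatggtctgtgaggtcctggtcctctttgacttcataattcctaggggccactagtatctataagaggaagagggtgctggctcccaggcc
Over 300 bases, from 250 before to 50 after the start, Tnp1 has 6 CpGs, Tnp2 has 4, Prm3 has 4, Prm2 has 3 and Prm1 has 1, against a median of 7 over 32851 RefSeq promoters. The letters CCGG, the same on both strands, occur 3 times at Tnp1 and 1 time at Tnp2 and are absent from the windows of Prm1, Prm2 and Prm3; 52.8% of all promoters hold them. In both Tnp1 and Tnp2 another CpG straddles the start itself, so that its first base is the last one shown. All 6 CpGs of the Tnp1 window were read and tested. The last 2 of these lie in the 14 bases at chr1:73015850-73015863 that open with an ATG, atgtCGaccagcCG. At Tnp2 3 of 4 CpGs were read and 1 was tested, and none of the 8 CpGs in the windows of Prm1, Prm2 and Prm3 was read.

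The reads covered the 5 genes unequally. At its own CpGs Tnp1 was the best covered, with 13 tested CpGs on chromosome 1 between 73015715 and 73015969, 11 of them in the body, and a median of 1106 reads per mouse summed over CpGs. Prm1 had 11 tested CpGs, all in its body between 10796640 and 10796746, at a median of 165.5 summed reads per mouse. Tnp2 had 2 tested CpGs in its body, at 10788486 and 10788655. Prm2 and Prm3 had no CpG with 5 reads in any mouse within their bodies or 1 kb around them. The 5 kb window of Prm2 therefore held only the 11 CpGs of Prm1 and the 2 of Tnp2, and its values below are those of its neighbours. Socs1, taken as its CpG-dense body at chr16:10783808-10785536 with 1 kb on either side, supplied 29 of the 31 tested CpGs in the Prm3 window and 129 of 131 in the Tnp2 window. Of the 155 tested CpGs, 26 lay outside that stretch, and these carry what the data say about the members themselves.

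**Figure D1:**
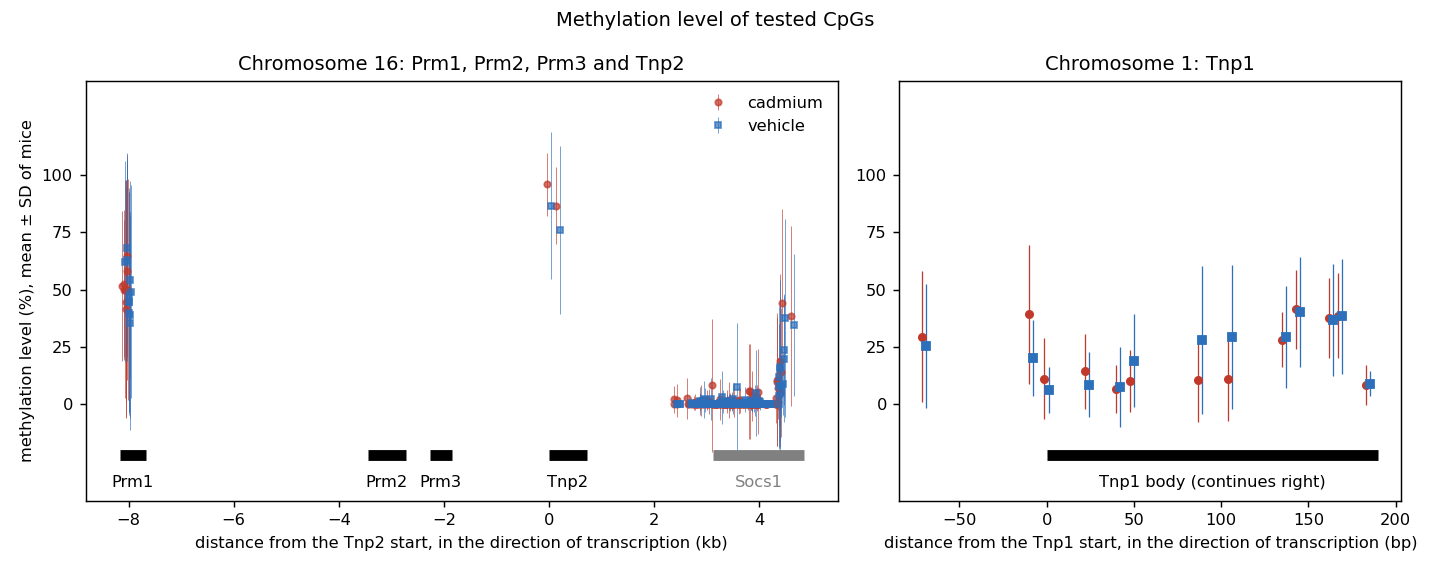
Methylation level (%, mean ± SD over mice) of each tested CpG in cadmium (red circles) and vehicle (blue squares) mice, against distance from the start of Tnp2 in kb (left) and of Tnp1 in bp (right), both in the direction of transcription; black bars are gene bodies, the grey bar is Socs1, and the groups are drawn slightly apart sideways. The CpGs at Socs1 sit near 0% save at the far end of its body, those of Tnp2 above 75%, and those of Prm1 near 50% with SDs that span most of the scale.

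Libraries held 53591172 to 94090975 reads of coverage summed over cytosines. The mitochondrial genome (chrM) took 0.0127% to 0.119% of it, with 0.0586% ± 0.0252 in cadmium mice, against 0.0584% ± 0.0342 in vehicle mice (SD, n = 15 each; two-sided permutation p = 0.987). Somatic cells carry many more copies of the mitochondrial genome than sperm do. The label "sperm" was checked at ends of imprinted genes listed for a region that is methylated on the maternal copy only and that sperm are known to leave unmethylated. Of each gene the end with more tested CpGs was taken, and whether it lies in that region was not checked. The ends read in every mouse numbered 13, and the 11 that averaged under 20% were used, which leaves out Mest (26.5%) and Plagl1 (21.5%). They stood at 14.6% ± 5.69 in cadmium mice, against 12.1% ± 7.97 in vehicle mice (p = 0.323), with single mice from 3.39% to 29.3%. The 11 ends are 9 separate regions, since Peg3 shares its CpGs with Usp29 and Peg10 with Sgce. With all 13 ends, an alternative added after the data were seen, the level was 16.1% ± 5.82 in cadmium mice, against 13.8% ± 8.83 in vehicle mice. The level over the 11 ends rose with the chrM share (r = 0.697, permutation p = 2e-05; rho = 0.741, p = 1e-05). Without the mice farthest from its median, vehicle mice 4 and 13, r was 0.666, and it was 0.516 in cadmium and 0.816 in vehicle mice. The H19 control region, which sperm methylate, averaged 88.0% ± 7.28 in cadmium mice, against 86.5% ± 11.9 in vehicle mice (p = 0.667). The imprinted gene ends were above 0% in every library, which is why the members were read against both measures below.

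Tnp1, which encodes the more abundant transition protein, was partly methylated in both groups, and the difference between them did not pass the test. Its level, methylated reads over all reads of its 13 CpGs, had a lowest, median and highest value of 5.41%, 23.3% and 48.2% in cadmium mice and of 7.41%, 23.5% and 57.7% in vehicle mice. The groups overlapped over most of this range. Means were 25.6% ± 12.03 and 26.1% ± 18.1 in cadmium and vehicle mice (SD, n = 15 each), a difference of -0.501 points with a 95% interval of -12.1 to 11.1. The quasi-binomial test gave p = 0.958 and an adjusted p of 1 over 29288 gene windows. Summed over these CpGs, cadmium mouse 5 had 53 methylated of 979 counts (5.41%, 95% Wilson interval 4.16% to 7.01%). Vehicle mouse 4 had 843 of 1462 (57.7%, 55.1% to 60.2%). Both intervals take each count as separate. A read that covers several CpGs is counted at each, so they are too narrow, and the counting error within a mouse was not measured.

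Within Tnp1 the level changed along the first bases of the gene. The 4 CpGs from 73015731 to 73015763, inside the body, averaged 36.1% ± 15.6 in cadmium mice, against 35.9% ± 23.5 in vehicle mice (SD, n = 15 each). The 4 CpGs from 73015850 to 73015899, which end at the start itself, averaged 10.96% ± 14.04 in 15 cadmium mice, against 10.06% ± 12.99 in 14 vehicle mice. Upstream, the CpG at 73015908 showed the widest gap between groups of the 13, with 39.3% ± 30.3 in cadmium mice, against 20.4% ± 16.5 in vehicle mice (n = 15 each; p = 0.0603, adjusted p = 0.506). The CpGs at 73015794 and 73015811 ran the other way, at 11.1% ± 18.3 and 10.4% ± 18.01 in 13 cadmium mice and at 29.3% ± 31.4 and 27.999% ± 32.2 in 15 vehicle mice (p = 0.137 and p = 0.139, adjusted p = 0.635 and 0.638). Across the 13 CpGs 7 were higher and 6 lower in cadmium mice, and none was called.

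At the innermost tested CpG of Tnp1, 73015715, the 2 strands differed. Its plus strand averaged 35.7% ± 28.6 (n = 30), with single mice from 0% to 83.3%, like the plus strand of its neighbour at 73015731, which averaged 35.2% ± 29.5. Its minus strand, in contrast, was at 0% in 28 of 30 mice and at most 5.08%, at a median of 107 reads, while the minus strand at 73015731 averaged 39.2% ± 22.0 at the same depth. Leaving this CpG out put Tnp1 at 28.002% ± 13.2 in cadmium mice, against 28.8% ± 20.9 in vehicle mice. At 73015763 it was the plus strand that lay low, at 8.90% ± 11.9 with the minus strand at 39.5% ± 21.6 (n = 30 each). At 73015908 the plus strand averaged 24.95% ± 25.9 in 30 mice and the minus strand 85.7% ± 31.5 in the 9 mice where it was read. What sets these strands apart was not tested.

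Prm1, the protamine that all mammals use, varied from wholly unmethylated to wholly methylated between mice of the same group. Its level had a lowest, median and highest value of 0%, 45.0% and 100% in 15 cadmium mice and of 0%, 45.2% and 100% in the 14 vehicle mice with 10 or more reads. Both groups filled the whole scale. Means were 53.9% ± 34.9 in cadmium mice, against 50.8% ± 37.8 in vehicle mice (SD), a difference of 3.14 points (95% interval -24.7 to 30.9; p = 0.823, adjusted p = 1). The interval shows that a difference of 20 points either way lies within the replicate error here. The sign was not stable either: with a minimum of 10 reads per CpG, which leaves only the 3 CpGs read on the minus strand, the difference was -13.1 points (51.4% ± 29.4 in 14 cadmium mice, against 64.5% ± 42.5 in 12 vehicle mice; p = 0.376, adjusted p = 1).

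In many mice, though not in all, the values of Prm1 moved in blocks. The 8 CpGs from 10796640 to 10796685 were read on the plus strand only and the 3 at 10796709, 10796718 and 10796746 on the minus strand only. Of 254 values of 1 CpG in 1 mouse, 80 were exactly 0% and 92 exactly 100%, together 67.7%. At Tnp2 this share was 79.2% of 48 strand values, and at Tnp1 36.4% of 538. Among the 22 mice with all 8 plus-strand CpGs of Prm1 read, the 8 levels lay within 10 points of each other in 13. In 19 mice with both strands read, the block means differed by more than 50 points in 6. Vehicle mouse 6 had 0% at each plus-strand CpG, with 20 reads at each, and 100% at the 3 minus-strand CpGs, with 34 or 35 reads. Cadmium mouse 14 had 0% on the plus strand and 60.0% on the minus strand. Over the 19 mice the minus-strand block minus the plus-strand block was 14.6 ± 46.1 points (SD), positive in 9 mice and negative in 10 (sign-flip permutation p = 0.182). How many DNA molecules the reads of a block stand for was not measured.

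**Figure D2:**
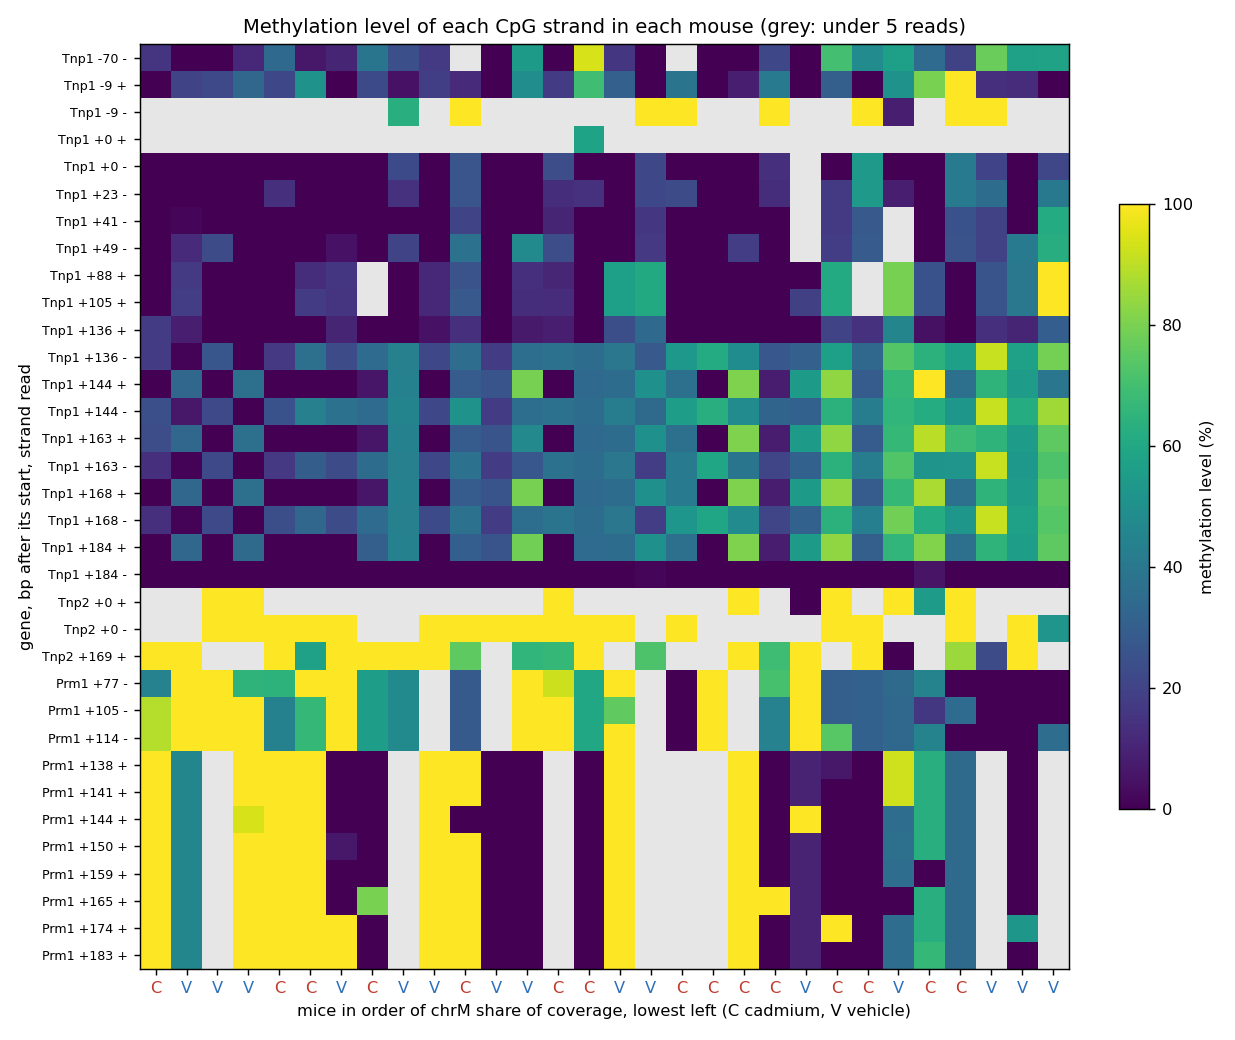
Methylation level (colour, 0 to 100%) of each CpG strand (rows, with bp after the gene's start) of Tnp1, Tnp2 and Prm1 in each mouse (columns, C cadmium and V vehicle), with mice in order of chrM share, lowest left; grey marks fewer than 5 reads. Tnp2 rows and the plus-strand rows of Prm1 are mostly at 0% or 100%, and the minus-strand rows of Prm1 less often. The plus-strand CpGs of Prm1 lie within 10 points of each other in 13 of 22 mice. The Tnp1 rows from +136 to +184 brighten to the right except for the plus strand at +136 and the minus strand at +184.

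Tnp2, the zinc-binding transition protein, was mostly methylated at its 2 own CpGs. Their joint level had a lowest, median and highest value of 55.0%, 100% and 100% in 14 cadmium mice and of 23.4%, 100% and 100% in 14 vehicle mice. The groups overlapped, and the lowest single value, 23.4%, was in a vehicle mouse. Means were 89.4% ± 15.2 and 81.5% ± 25.3 in cadmium and vehicle mice (SD), a difference of 7.87 points (95% interval -8.53 to 24.3; p = 0.134, adjusted p = 1 over 1 kb windows). The CpG at the start, 10788655, stood at 95.9% ± 13.6 in 11 cadmium mice, against 86.6% ± 32.1 in 11 vehicle mice, and the one in the body, 10788486, at 86.6% ± 16.7 in 11 and 76.1% ± 36.7 in 10. In the 5 kb window, where Socs1 supplies nearly all CpGs, Tnp2 stood at 1.65% ± 0.863 and 1.55% ± 0.421 in cadmium and vehicle mice (n = 15 each; p = 0.730, adjusted p = 1).

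Prm2 and Prm3 were seen only through their neighbours. Prm2 encodes the protamine that is made as a precursor, and its window stood at 59.9% ± 28.2 in cadmium mice, against 57.5% ± 32.2 in vehicle mice (p = 0.996, adjusted p = 1). Prm3 encodes an acidic protein that resembles the protamines less, and its window stood at 2.93% ± 2.19 and 2.26% ± 1.42 in the same groups (p = 0.279, adjusted p = 1; n = 15 each for both genes). The 129 CpGs at Socs1 themselves averaged 1.13% ± 0.734 in cadmium mice, against 1.13% ± 0.502 in vehicle mice, and 60 of them were at 0% in every mouse. In the Prm3 window the best covered CpG, 10785620, was above 0% in 3 cadmium mice and in no vehicle mouse (p = 0.00271, adjusted p = 0.260). At 10784779, inside Socs1, 2 cadmium mice and no vehicle mouse were above 0% (p = 0.00216, adjusted p = 0.249). At 10784750, also inside Socs1, cadmium mice averaged 1.117% and vehicle mice 0.0901% (p = 0.00583, adjusted p = 0.306). These p values come from read counts and are not a test of how many mice were above 0%. Before adjustment the same test put 10.3% of all CpGs under 0.05, against 1.56% with limma on percent methylation. The best covered CpGs of the Tnp2 window, 10784912, 10785256 and 10785259 inside Socs1, averaged 0.706%, 0.0300% and 0% over all mice.

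**Figure D3:**
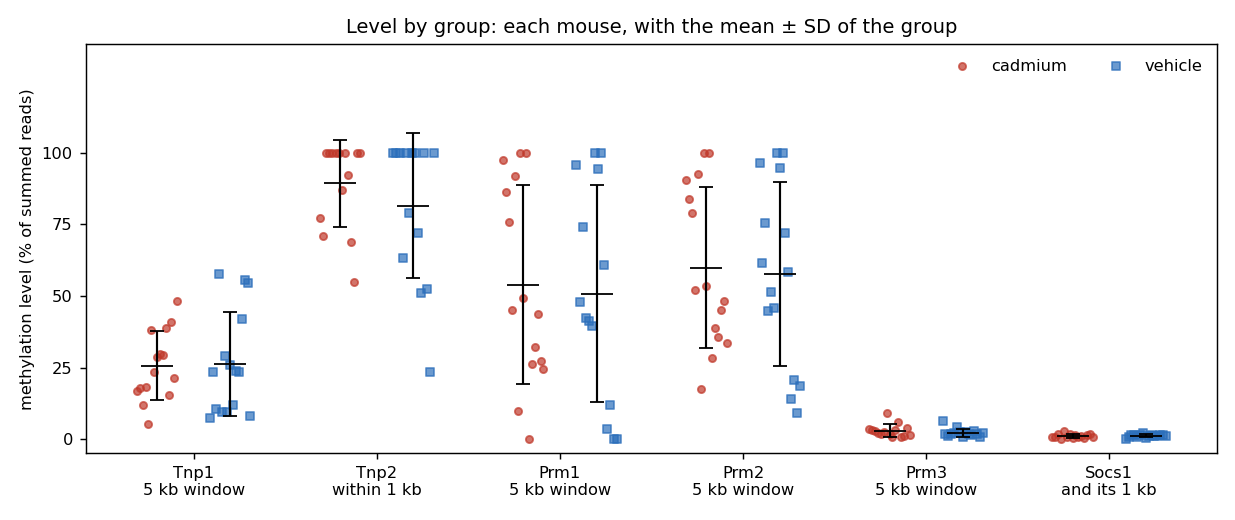
Methylation level (%) of each gene in each mouse, cadmium (red circles) left of vehicle (blue squares), with the mean ± SD of the group in black. Tnp1 averages 25.6% and 26.1%, Tnp2 within 1 kb 89.4% and 81.5%, Prm1 53.9% and 50.8%, and Prm2 59.9% and 57.5%; Prm3 and Socs1 lie under 10% in every mouse.

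Cadmium was tested at each CpG and gene window over the whole table. At single CpGs 14 of 1264996 passed an adjusted p of 0.05, which is 0.00111% (0.000474% higher and 0.000632% lower in cadmium mice), and none of the 155 in the members' windows did. Unadjusted, 13 of the 155 were under 0.05, all of them at Socs1 and none among the other 26, against 130531 of all CpGs (10.3%). Of the 29288 gene windows 0% were called, and 1158 (3.95%) were under 0.05 before adjustment, none of them a member's. With limma on percent methylation 0 gene windows and 0 CpGs were called, and 1022 gene windows (3.49%) and 19733 CpGs (1.56%) were under 0.05 before adjustment. At single CpGs the quasi-binomial test thus gave small unadjusted p values more often than limma did.

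No difference in the share of coverage at the members passed the test. Total coverage of the libraries was 6.73e+07 ± 7.26e+06 in cadmium mice, against 7.41e+07 ± 1.14e+07 in vehicle mice (SD, n = 15 each; two-sided permutation p = 0.0612). Tnp1 took 16.5 ± 3.12 ppm of nuclear coverage in cadmium mice, against 16.2 ± 2.31 in vehicle mice, and Prm1 2.56 ± 1.22 and 2.20 ± 1.29 (SD, n = 15 each). The permutation p for the 5 windows and the pooled chromosome 16 window ran from 0.402 to 0.877, and every adjusted p was 0.877. With the chrM share the largest r of these depths was 0.347, for the Tnp2 window (p = 0.0601, adjusted p = 0.194 over 6 relations; rho = 0.368, adjusted p = 0.136).

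Between mice, the Tnp1 level rose with the chrM share of coverage. The 8 mice with the highest chrM shares, 0.0819% to 0.119%, were also the 8 with the highest Tnp1 levels, at 38.0% to 57.7%, and 4 of them were cadmium and 4 vehicle mice. The other 22 mice lay between 5.41% and 29.9%. These 8 were picked after their values were seen. Over all 30 mice r was 0.799 and rho 0.845 (permutation p = 1e-05 for each, the smallest that 100000 resamples can give; adjusted p = 0.00012 over 12 relations). Without the mice farthest from the median share, cadmium mouse 5 and vehicle mouse 3, r was 0.806, and within groups it was 0.789 in cadmium mice, against 0.816 in vehicle mice. In the quasi-binomial model with treatment, the odds of methylation rose 2.46-fold per doubling of the share (log odds 0.900 ± 0.124 SE, adjusted p = 1.16e-06).

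Such relations were common in these libraries. Of the 29288 gene windows, 34.3% were called against the chrM share, 9.69% higher and 24.6% lower, so the call itself is no mark of Tnp1. By p, Tnp1 ranked 262 of 29288. Among the 4364 windows of 20% to 35% methylation, 14.5% rose and 24.4% fell. At single CpGs 13.1% were called, 6.25% upward and 6.88% downward. All 13 CpGs of Tnp1 had a positive slope and 8 were called, the strongest being 73015736 (log odds 1.01 ± 0.155 SE per doubling, adjusted p = 8.11e-06), 73015731 (1.02 ± 0.160, adjusted p = 9.94e-06) and 73015763 (0.971 ± 0.158, adjusted p = 1.63e-05). The CpG at 73015908, 9 bases upstream of the start, did not pass, at 0.184 ± 0.238 (adjusted p = 0.886). With limma 4 CpGs of Tnp1 were called, where 38443 of all 1264996 CpGs were. Neighbouring CpGs of Tnp1 can share reads, so the 13 are not separate observations.

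Prm1 fell with the chrM share. In the 8 mice with the highest shares its level ran from 0% to 43.7% with a median of 18.2%, and in the other 21 mice with a value from 0% to 100% with a median of 73.9%. The ranges overlapped. Over 29 mice r was -0.557 (p = 0.00175, adjusted p = 0.0042) and rho -0.554 (p = 0.00215, adjusted p = 0.00645). Leaving out cadmium mouse 5 and vehicle mouse 3 gave r = -0.539, and r was -0.499 in cadmium and -0.616 in vehicle mice. The odds of methylation were multiplied by 0.371 per doubling (log odds -0.991 ± 0.248 SE, adjusted p = 0.00119). All 11 CpGs had a negative slope. Neighbours on a strand had nearly the same depth in each mouse and can share reads, so they are not separate observations. The strands were unequal. The 8 plus-strand CpGs, none of which was called, had r = -0.423 (n = 22 mice; permutation p = 0.0497) and rho = -0.411 (p = 0.0586), with r = -0.574 in cadmium and -0.259 in vehicle mice. The 3 minus-strand CpGs had r = -0.607 (n = 26; permutation p = 0.00087) and rho = -0.626 (p = 0.00067), with r = -0.405 in cadmium and -0.745 in vehicle mice. Whether the strands differ in this was not tested. All 3 on the minus strand were called, 10796718 at -1.57 ± 0.393 (adjusted p = 0.00105), 10796709 at -1.32 ± 0.396 (0.00735) and 10796746 at -1.40 ± 0.454 (0.0117). With limma 1 of these, 10796718, was called (adjusted p = 0.0195), where 38443 of all 1264996 CpGs were. Falling windows made up 24.6% of all windows, and CpGs called as falling made up 6.88% of all CpGs.

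Tnp2 ran in the same direction as Prm1 at its own CpGs. Within 1 kb its odds were multiplied by 0.300 per doubling (log odds -1.204 ± 0.452 SE, adjusted p = 0.0188), where 32.3% of 26852 windows of that width were called, 9.88% higher and 22.4% lower. Over 28 mice r was -0.488 (p = 0.00831, also after adjustment over 4 relations within 1 kb, of the 3 members read there and of the pooled chromosome 16 window) and rho -0.518 (p = 0.00519), and r was -0.474 without cadmium mouse 5 and vehicle mouse 3. In cadmium mice r was -0.186 and in vehicle mice -0.680, and whether the groups differ in this was not tested. In the 5 kb windows, filled by Socs1, neither Tnp2 (log odds -0.0555 ± 0.0858 SE, adjusted p = 0.648) nor Prm3 (0.00336 ± 0.154, adjusted p = 0.990) passed. The Prm2 window, made of Prm1 and Tnp2 CpGs, stood at -0.927 ± 0.214 (adjusted p = 0.000538). At Socs1 13 of 129 CpGs were called, 8 higher and 5 lower, where 13.1% of all CpGs were called, 6.25% higher and 6.88% lower. Of these 13, 11 rested on 1 or 2 mice above 0%, among them 10784316, 10785003, 10785847, 10786190 and 10785819, and limma called none. Pooled over all its CpGs the chromosome 16 window had r = -0.636 (p = 0.00017, adjusted p = 0.00068) and rho = -0.492 (adjusted p = 0.0142), -0.463 without the same 2 mice, and r = -0.585 with the Socs1 CpGs left out. In the 5 kb windows no member passed the test of a difference in slope between cadmium and vehicle mice. The adjusted p of the interaction was 1 for all 5, with 0.0102% of windows called. For Tnp2 and Prm3 this speaks mostly of Socs1, and for Prm2 only of its neighbours. The test was not run on the 2 own CpGs of Tnp2.

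**Figure D4:**
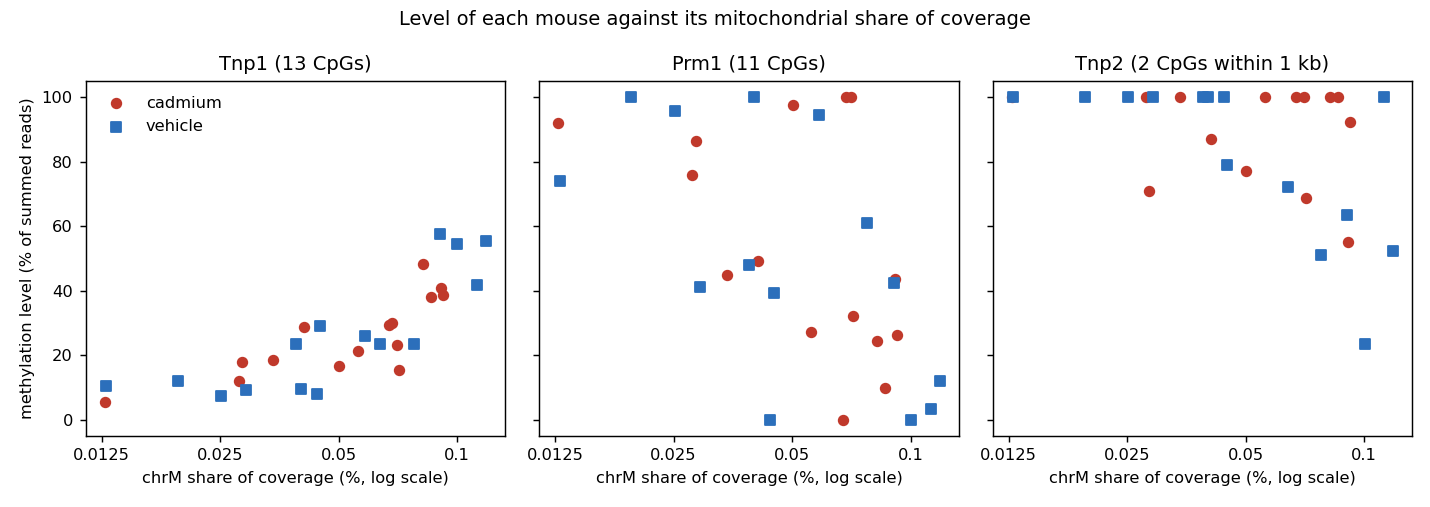
Methylation level (%) of each mouse against the mitochondrial share of its coverage (%, log scale), for the 13 CpGs of Tnp1, the 11 of Prm1 and the 2 within 1 kb of Tnp2, in cadmium (red circles) and vehicle (blue squares) mice. Tnp1 rises to 38.0% and above in the 8 mice with the highest shares, while none of these 8 exceeds 43.7% at Prm1, and Tnp2 leaves 100% in more mice toward the right.

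The level of the imprinted gene ends moved with the members in the same directions. With it Tnp1 had r = 0.711 (p = 3e-05, adjusted p = 0.00018) and rho = 0.678 (adjusted p = 0.00054). Without vehicle mice 4 and 13, the farthest from its median, r was 0.578. In cadmium mice r was 0.378 and in vehicle mice 0.893, a gap that was not tested. Prm1 had r = -0.398 (p = 0.0329, adjusted p = 0.0525) and rho = -0.369 (adjusted p = 0.0749), which miss the threshold. It passed with all 13 gene ends (r = -0.435, permutation p = 0.0186, adjusted p = 0.03165). It also passed with each of the 9 regions counted once (r = -0.427, permutation p = 0.0217, adjusted p = 0.0372). Both were added after the data were seen. With a minimum of 10 reads Prm1 passed (r = -0.667, n = 26 mice, permutation p = 0.00028, adjusted p = 0.00056). As deviations from each CpG's mean it did not (r = -0.344, permutation p = 0.0674, adjusted p = 0.1348). The adjusted p of 0.0525 is over 12 relations. Over the 4 relations within 1 kb the same r of -0.398 had an adjusted p of 0.0329. Whether Prm1 passes thus depends on the relations counted, the gene ends used, the read minimum and the way the level is formed. At the 2 CpGs of Tnp2 r was -0.512 (p = 0.0055, adjusted p = 0.011 over 4 relations within 1 kb, of the 3 members read there and of the pooled chromosome 16 window) and rho -0.548 (p = 0.0033), with r = -0.398 without vehicle mice 4 and 13, and -0.488 in cadmium and -0.591 in vehicle mice. The part of the imprinted level and of the chrM share in the members' levels was not tested.

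Within a mouse, Tnp1 was in most cases less methylated than the CpGs of Prm1 and Tnp2. Against the pooled 5 kb window of chromosome 16, which is 90.8% Socs1 CpGs, Tnp1 was 22.9 ± 15.8 points higher (SD, n = 30 mice; 29 higher; sign-flip permutation p = 1e-05, the smallest possible). With the CpGs at Socs1 left out, an alternative added after the data were seen, the sign turned: the difference was -32.9 ± 40.7 points, with Tnp1 lower in 23 of 30 mice (p = 0.00024). Tnp1 minus Prm1 alone was -26.5 ± 46.0 points (n = 29, lower in 20; p = 0.00473), and Tnp1 minus the 2 CpGs of Tnp2 was -59.7 ± 32.1 points (n = 28, lower in 26; p = 1e-05). Prm1 minus Tnp2 was -36.8 ± 36.5 points (n = 27, lower in 21 and higher in 3; p = 4e-05). Across mice the level of Tnp1 and that of the chromosome 16 CpGs outside Socs1 had r = -0.601 (permutation p = 0.00052) and rho = -0.559 (p = 0.00154), with -0.655 after leaving out cadmium mice 7 and 9, and -0.570 in cadmium and -0.627 in vehicle mice.

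Genes that act with the members were read from 4 lists, in windows of 5 kb around each body. None of their 44 measured genes was called for cadmium, where 0% of all windows were. The smallest p in the lists was at Parp2, a poly(ADP-ribose) polymerase active at DNA breaks in spermatids, with 22.2% ± 7.87 in cadmium mice, against 16.7% ± 7.97 in vehicle mice (SD, n = 15 each; p = 0.0486, adjusted p = 1). Other windows with the smallest p in their list were Ybx2, a germ cell protein that stores mRNAs, at 17.3% ± 4.98 and 14.1% ± 3.001 in cadmium and vehicle mice (p = 0.0791), and Kif17, a motor protein that moves a coactivator of Crem, at 29.4% ± 4.96 and 26.5% ± 4.20 (p = 0.0815). H3f3a, a histone H3.3 gene, stood at 2.49% ± 1.23 and 3.08% ± 1.47 (p = 0.205), and the second smallest p of each list was at Ipo4, Nr6a1, Paip2 and H1f6, from 0.160 to 0.389. All of these had an adjusted p of 1.

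Against the chrM share the lists were mixed, where 9.69% of all windows rose and 24.6% fell. Of testis histones, 3 of 8 measured genes rose, 1 fell and 4 did not pass. H2bc1 and H2ac1, the testis forms of H2B and H2A, share their 25 CpGs and rose together (log odds 0.851 per doubling, adjusted p = 4.41e-06), at 28.9% ± 14.7 in cadmium mice, against 29.1% ± 18.8 in vehicle mice. Of 18 genes of histone removal, 5 rose and 5 fell, among those that fell Ppp1cc, a phosphatase subunit (-0.320, adjusted p = 0.000913), and Ctcfl, a testis relative of Ctcf (-0.375, adjusted p = 0.00105). Of 9 genes that act in transcription of the members, 1 rose: Taf7l, a subunit of TFIID on the X chromosome, at 24.1% ± 14.7 in cadmium mice, against 24.7% ± 16.2 in vehicle mice (1.02, adjusted p = 1.84e-07). Kdm3a, a demethylase of histone H3 needed for Tnp1 and Prm1 expression in mice, did not pass (-0.324, adjusted p = 0.0617). Of 9 genes of mRNA storage, Tdrd6, of the chromatoid body, rose (0.159, adjusted p = 0.00697) and Ybx1 fell (-0.211, adjusted p = 0.0231). The median slopes of the lists were 0.239, -0.0676, -0.0408 and -0.0952 in the order given, against -0.0891 over all windows.

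Genes whose window level ran most like the members' across the 30 mice were sought among 15368 windows, as a description. For the pooled chromosome 16 window they were Usp36 (r = 0.802), Snx30, Gm30968, Alox12b and Sdcbp2 (r = 0.754). For the same window without the CpGs at Socs1 they were Omd (r = 0.802), Gm30350, Gm35218, 4930527A07Rik and Cpne5 (r = 0.738). For Tnp1 they were Pcdhgb1 (r = 0.926), Pcdhga5, Pcdhga4, Pcdhgb4 and Pcdhga2 (r = 0.922), gamma-protocadherin genes whose windows overlap, with 315 to 428 CpGs each. The searches for Tnp1 and without Socs1 were added after the data were seen, and all windows share each library's chrM share.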

How the data were processed

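DNA methylation was measured by RRBS in cauda epididymal sperm of 15 cadmium and 15 vehicle mice, 1 library per mouse. The deposited tables list CpG cytosines by strand, each with the authors' count of reads and the methylated fraction of that count. Builds mm10 and GRCm38 are named in the submitters' processing notes, as are the tools methylKit 1.12.0, Bismark 0.22.3, Trim Galore 0.5.0 and bcl2fastq, whose roles are not given in the sources used here. Fraction times count came within 0.1 of a whole number, with at most 1 exception in a library, so methylated reads were the rounded product. Control sequences in the libraries read 97.9% to 98.7% (methylated) and 0.0740% to 0.666% (unmethylated). Intervals that rest on reads cover counting error only. They are too narrow, since PCR copies are not separate molecules and a read is counted at each CpG it covers.

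Strands of a CpG were summed. CpGs on autosomes and X were tested where 10 or more cadmium and 10 or more vehicle mice had 5 reads or more, leaving out coverage over each mouse's 99.9th percentile. Gene windows were the RefSeq body with 5 kb on either side, and mice entered with 10 or more summed reads. Methylated and unmethylated reads were fitted with a quasi-binomial logistic model (Python 3.11.15, numpy 2.4.6, scipy 1.17.1), with a Pearson dispersion of at least 1 and an F test of treatment or, with treatment kept, of log2 chrM share. P values were adjusted by Benjamini-Hochberg over all features tested and called under 0.05. Single values used two-sided permutation tests with 100000 resamples. Differences are between unweighted means of mice, with 95% intervals. The scripts were tested on simulated data.

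Alternatives were minima of 10 and 20 reads, no upper coverage limit, all 15 mice of each group, 1 kb and 10 kb windows, no treatment covariate, deviations from each CpG's mean, and limma 3.58.1 fits to percent values, once plain and once with a replicate block. The members, gene lists and tests were chosen with earlier results of these data known. Named CpGs were, per window, the 3 best covered and the 3 with the smallest p for treatment and for the chrM share, and those that define a block described in the text; of each list the 2 genes with the smallest p for each were named. The annotation used gives no exons. No 2 libraries of a group agreed within sampling noise (lowest mean chi-square per CpG 9.88 over 210 pairs).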

Additional observations from a re-analysis of the deposited data

How the results depend on the processing

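The relation of Tnp1 and of Prm1 with the chrM share kept its direction and passed the threshold under every alternative that could be run for it. So did that of the Prm2 window, which is no separate evidence. It holds CpGs of Prm1 and Tnp2, and at 10 kb also of Socs1, but none of Prm2 itself. No member was called for cadmium under any of them, and no gene window was. Coverage of the members kept its direction and stayed short of the threshold. Called CpGs for cadmium, 14 over the whole table, numbered 6 with a minimum of 10 reads, 4 with 20, 8 with all 15 mice of each group and 0 with limma. Called CpGs against the chrM share, 166187 over the whole table (13.1%) and 25 of 155 in the members' windows, numbered 86491 and 15 with all 15 mice and 38443 and 5 with limma. Differences between groups that were far from the threshold turned sign: Prm1 to -13.1 points with 10 reads and -11.7 with 20, Prm2 to -8.56 and -11.7, Tnp2 to -0.0180 with 20 reads, and Tnp1 to 0.998 with all 15 mice, which leaves 6 CpGs. Against the chrM share the Tnp2 window turned to a log odds of 0.0649 (10 reads) and 0.0123 (all 15 mice) and passed at -1.204 (1 kb) and -0.304 (10 kb). The Prm3 window turned to -0.304 (10 kb, where it has the same CpGs as Tnp2) and to -0.0402 points with limma. Correlations with the chrM share turned to 0.0117 for Prm3 and 0.0552 for Tnp2 with 10 reads and to 0.132 for Tnp2 as deviations, and Tnp2 passed at -0.488 within 1 kb. With the imprinted gene ends they turned to 0.0190 (Prm3) and 0.0445 (Tnp2) with 10 reads and to 0.0800 (Tnp2) as deviations. As deviations Prm1 (-0.344, adjusted permutation p = 0.1348), Prm2 (-0.368, 0.1348) and the chromosome 16 window (-0.266, 0.234) missed the threshold. Of these, only Prm2 had passed as reported (-0.451, adjusted permutation p = 0.0252). On plain levels, not deviations, Tnp2 within 1 kb passed at -0.512. The difference between Tnp1 and the chromosome 16 window turned to -32.9 points both within 1 kb and without the CpGs at Socs1. In some of these settings the Socs1 CpGs leave or enter the window, and the cause of the changes was not tested.

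Mice share numbers 1 to 15 between groups. Over 71541 CpGs same-numbered pairs correlated from -0.247 to 0.653, with 5 of 15 above 0.1. Of 15 mice, 2 correlated best with their own number. These values do not settle whether the numbers pair the mice. With the replicate block limma called 0 CpGs and 0 gene windows, and the differences kept their sign, with Tnp1 at -0.501 points and Prm1 at 7.00. Depth leaves Prm2 and Prm3 with no CpG of their own, Tnp2 with 2 tested CpGs and Prm1 with wide intervals.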
